A study of Mus musculus with 26 samples.

Results

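The 35 genes described here belong to the cell's answers to unfolded protein in the endoplasmic reticulum (ER) and to shortage of amino acids. They were grouped by known function, with earlier results of these data in view, and were found by symbol among the 47730 features of the count table. The unfolded protein side held 17 genes: 11 ER chaperones and folding helpers, Xbp1 with the sensors Atf6 and Ern1, and 3 genes of ER-associated degradation. The other 18 genes formed the ATF4 side: Atf4, Ddit3 and 4 other stress regulators, 7 genes of serine, one-carbon and asparagine synthesis, 3 amino acid transporters and 2 aminoacyl-tRNA synthetases. All 35 passed the filter on low counts.

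Unfolded protein in the ER is sensed by 3 membrane proteins. IRE1, encoded by Ern1, splices the mRNA of the transcription factor XBP1, ATF6 is cut free to act as a transcription factor, and PERK phosphorylates the translation initiation factor eIF2. XBP1 and ATF6 raise chaperone genes, whereas eIF2 phosphorylation, which the amino acid sensor GCN2 also causes, favours translation of ATF4 in the integrated stress response. ATF4 turns on genes that make, import and load amino acids, and genes such as Ddit3 (the stress transcription factor CHOP). Secretory tumour cells depend on the chaperones, and cultured cells on the nutrients of their medium.

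RNA was sequenced from E-A14 cells, a Her2-expressing mouse mammary tumour line, taken from tumours in the fourth mammary fat pad of FVB/N mice implanted at 6 to 8 weeks of age, or from culture. In the depleted group, mice received 100 µg of anti-CD4 and 100 µg of anti-CD8a 2 times per week, and tumours were taken at day 20. Control mice received 100 µg each of rat IgG2a and rat IgG2b on the same schedule, and their tumours were taken at day 47. Injections began 2 weeks before implantation in both groups. Live Her2+ cells of each tumour that lacked CD45, CD90 and CD105 were split by EpCAM, which gave 4 tumour groups of 6 libraries, EpCAM-positive and EpCAM-negative from control and depleted hosts, beside 2 libraries of the cultured line. The study compared epithelial with mesenchymal tumour cells from immunocompetent and T-cell-depleted hosts. Control against depleted tumours was also day 47 against day 20, and these cannot be told apart. All tumours came from 1 line, and the labels do not say whether both cultures were grown separately. Because culture had 2 libraries, all groups were fitted together. The p-values, against culture and between tumour groups, thus rest on a spread pooled over all groups.

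Library totals were 17559520 to 25601999 counts in the depleted groups, 26895429 to 38740143 in the control groups and 27253363 and 35059744 in culture, so that depth did not overlap between treatments. Levels below are CPM (counts scaled to equal library size) on TMM-scaled libraries, and they are not divided by gene length. A difference is a log2 fold change from edgeR's quasi-likelihood test. Its standard error (SE) was derived as the absolute log2 fold change divided by the square root of the test's F statistic. A difference passed where the p-value, adjusted by Benjamini-Hochberg over 16637 features, was under 0.05. Epcam ran from 2038 to 2705 CPM in EpCAM-positive and from 40.0 to 284 CPM in EpCAM-negative depleted cells, and from 815 to 1416 and from 1.06 to 2.39 CPM in the corresponding control cells. The summed macrophage markers, all 18 with counts in each tumour group, ranged over 192 to 296, 174 to 425, 126 to 309 and 65.6 to 82.6 CPM in these 4 groups in turn, against 70.1 to 71.5 CPM in culture. The 12 fibroblast markers, of which Thy1 was at 0 in EpCAM-negative control cells, summed to 79.3 to 254 CPM in depleted, 1229 to 5053 CPM in control and 17.3 to 18.8 CPM in cultured cells. T and NK cell markers summed to at most 3.65 CPM and endothelial markers to at most 60.7 CPM. Plasma cells are rich in ER chaperones. The 13 plasma cell markers, which include genes of other cells such as Sdc1, summed to 1931 to 2630 CPM in depleted, 1256 to 1643 CPM in control and 1119 to 1150 CPM in cultured cells. Of the 13, 10 or 11 had counts in each tumour group and 8 in culture. Tnfrsf17 was at 0 in all 5 groups, Jchain reached at most 1.04 CPM and Mzb1 at most 0.616 CPM. The other members were not taken apart, and the part of plasma cells in the chaperone levels was not tested. In bulk RNA, fewer cells of a type and less RNA per cell cannot be told apart.

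Promoter windows, 250 bases before to 50 after the start, were found in RefSeq (GRCm38.p6) for 29 of the 35 genes, and were searched on both strands for 4 motifs known to serve these responses. Manf, Slc7a3, Atf6, Aldh1l2, Slc7a5 and Hyou1 had no window in that table. The ER stress response element (ERSE) is CCAAT, then 9 bases of any kind, then CCACG. It stood in 5 of 9 chaperone promoters and in 0.137% of the windows of 27025 genes. The 5 chaperone genes were Hspa5, Hsp90b1, Dnajc3, Pdia6 and Creld2, shown here with the motif in capitals. The EpCAM contrast of each differed between hosts in 1 direction. Sdf2l1, Pdia4 and Dnajb11, whose windows held no ERSE, differed in the same direction, though Dnajb11 held the related element ERSE-II, described below. Whether the motif bears on the contrast was not tested.

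Hspa5: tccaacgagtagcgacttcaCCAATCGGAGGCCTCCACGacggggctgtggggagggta
Hsp90b1: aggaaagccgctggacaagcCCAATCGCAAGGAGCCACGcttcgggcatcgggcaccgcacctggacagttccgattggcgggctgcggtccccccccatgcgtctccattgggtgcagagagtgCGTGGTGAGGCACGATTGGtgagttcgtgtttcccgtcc
Dnajc3: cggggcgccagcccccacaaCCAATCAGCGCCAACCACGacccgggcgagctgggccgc
Pdia6: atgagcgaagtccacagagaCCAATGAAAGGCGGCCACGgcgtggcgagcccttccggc
Creld2: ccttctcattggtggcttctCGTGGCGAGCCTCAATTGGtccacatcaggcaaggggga
Each is written 5′ to 3′ on the strand of its gene, from chr2:34772005-34772063 (plus strand) for Hspa5, chr10:86705513-86705676 (minus) for Hsp90b1, chr14:118937807-118937865 (plus) for Dnajc3, chr12:17266471-17266529 (plus) for Pdia6 and chr15:88819500-88819558 (plus) for Creld2. Counted with -1 as the last base before the start, the motif lay at -65 to -47 in Hspa5, at -105 to -87 in Dnajc3 and at -98 to -80 in Pdia6. It lay on the opposite strand in Creld2, at -126 to -108. Hsp90b1 held it on both strands, at -212 to -194 and at -107 to -89.

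The C/EBP-ATF response element (CARE), TGATGNAA, through which ATF4 acts, stood in the windows of Trib3, Chac1, Nupr1, Asns and Aars, 5 of 15 on the ATF4 side, and in 4.51% of all windows. Herpud1, an ER-associated degradation gene, held both CARE and ERSE-II, which is ATTGG, then 1 base of any kind, then CCACG, and which stood in 0.0444% of all windows. These promoters are printed with the motifs in capitals because Asns and Chac1 had the widest spread of levels between groups among the synthesis and regulator genes with a window, and because Herpud1 carries the motifs of both sides.
Asns: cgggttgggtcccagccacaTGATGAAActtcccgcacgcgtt
Chac1: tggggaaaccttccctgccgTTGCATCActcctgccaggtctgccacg
Nupr1: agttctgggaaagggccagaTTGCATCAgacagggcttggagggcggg
Aars: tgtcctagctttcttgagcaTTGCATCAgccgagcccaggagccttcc
Herpud1: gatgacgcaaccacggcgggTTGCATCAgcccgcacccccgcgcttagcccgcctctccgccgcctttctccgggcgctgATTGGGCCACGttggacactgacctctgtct
They run from chr6:7693210-7693252 (minus strand) for Asns, chr2:119351029-119351076 (plus) for Chac1, chr7:126625553-126625600 (minus) for Nupr1, chr8:111033710-111033757 (plus) for Aars and chr8:94386297-94386407 (plus) for Herpud1. CARE lay at -23 to -16 on the gene's strand in Asns, and on the opposite strand in Chac1 (-193 to -186), Nupr1 (-110 to -103), Aars (-112 to -105) and Herpud1 (-112 to -105). The copy in Trib3, a further copy in Aars (10 to 17) and the ERSE-II of Dnajb11 lay after the start. The element TGACGTGG, bound by XBP1 and ATF6, stood in 0.714% of all windows and in none of the 29. No motif overlapped another in a printed stretch. A match describes the letters only, and the absence of one says nothing about binding.

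The ER chaperones differed between EpCAM-negative and EpCAM-positive cells in opposite directions in the 2 kinds of host. In control tumours, 7 of 11 were higher in EpCAM-negative cells and 1, Dnajb9, was lower (median log2 fold change 0.26, against -0.010 over all features), where 13.3% of all features were higher and 14.5% lower. With 1 term per tumour in the fit, each library number taken as 1 tumour, Dnajc3 and Manf were called higher there too. The labels do not say that a number marks a tumour, and control numbers did not pair in every case. In depleted tumours none was higher and 9 of 11 were lower in EpCAM-negative cells (median -0.31, against 0.013 over all), where 14.2% of all features were higher and 14.3% lower. The difference between these contrasts passed, towards higher in control, for 10 of 11 (median 0.65), where 8.69% of all features differed in that direction and 9.33% in the other. Differences were small, from -0.58 to 0.37 on the log2 scale within a host. With library totals in place of TMM scaling, which moved the median of all features to -0.15 in control tumours and to -0.22 in the difference, the calls became 1 higher and 1 lower in control, 7 lower in depleted, and 7 higher and 1 lower in the difference, with chaperone medians of 0.12, -0.28 and 0.47.

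Hspa5 encodes BiP, the main Hsp70 chaperone of the ER and the regulator of all 3 sensors. Its level was 2754 and 2976 CPM in culture, and the lowest, median and highest were 2066, 2381 and 2692 CPM in EpCAM-positive and 1765, 2017 and 2550 CPM in EpCAM-negative depleted cells. In control tumours they were 1572, 1707 and 2263 CPM in EpCAM-positive and 1840, 1992 and 2417 CPM in EpCAM-negative cells. Tumour libraries all lay below both cultures, and the EpCAM groups overlapped within each host. The EpCAM contrast was 0.20 ± 0.09 (SE, n = 6 and 6) in control and -0.20 ± 0.09 in depleted tumours, with adjusted p of 0.110 and 0.0985 in edgeR. With 1 term per tumour in the fit, the depleted value was -0.22 with an adjusted p of 0.0485. The difference of the contrasts was 0.40 ± 0.13 (adjusted p 0.0297), and it missed the threshold when any of 9 of the 24 libraries was left out (highest adjusted p 0.0665).

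Other chaperones separated the groups more clearly. Pdia6, a protein disulphide isomerase that also damps the sensors, was at 1022 to 1119 CPM in EpCAM-negative and 685 to 949 CPM in EpCAM-positive control cells, which did not overlap, and the difference was 0.37 ± 0.06 (adjusted p 2.84e-05). In depleted tumours the order was turned round, with 749 to 803 CPM in EpCAM-negative and 916 to 1057 CPM in EpCAM-positive cells, again without overlap, and a difference of -0.36 ± 0.06 (adjusted p 3.33e-05). Pdia4, another disulphide isomerase, and Dnajb11, a co-chaperone of BiP, had the same order and no overlap in either host. Pdia4 differed by 0.23 ± 0.05 in control and -0.58 ± 0.06 in depleted tumours, and Dnajb11 by 0.26 ± 0.06 and -0.55 ± 0.06. Pdia6 overlaps Atp6v1c2 on the opposite strand (23.0 CPM on average), whose reads this kit cannot separate. Hsp90b1, the ER member of the Hsp90 family, gave 0.28 ± 0.06 and -0.50 ± 0.06, with overlap in control tumours only.

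Sdf2l1, a partner of the BiP cycle, was the chaperone gene with the largest difference between hosts. It stood at 64.5 and 77.8 CPM in culture. In depleted tumours its lowest, median and highest were 39.5, 43.7 and 46.2 CPM in EpCAM-positive and 22.6, 28.7 and 39.1 CPM in EpCAM-negative cells, and in control tumours 44.6, 49.5 and 57.3 CPM and 53.6, 63.5 and 70.0 CPM. EpCAM-negative cells from both hosts did not overlap, and control exceeded depleted by 1.07 ± 0.10 (adjusted p 3.40e-09, 2.10-fold). The EpCAM contrast in control tumours, 0.29 ± 0.10 (adjusted p 0.0310), missed the threshold when any of 8 of the 12 libraries was left out (highest adjusted p 0.0989). In depleted tumours it was -0.54 ± 0.10 (adjusted p 0.000201).

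The remaining chaperones were Creld2, Hyou1, Manf, Dnajc3 and Dnajb9. Creld2, an ER folding helper, Hyou1, a nucleotide exchange factor of BiP, and Manf, a secreted ER-resident factor, differed by 0.29, 0.36 and 0.20 in control and by -0.31, -0.29 and -0.26 in depleted tumours. Manf overlaps Dcaf1 on the opposite strand (60.4 CPM on average) and Rbm15b on its own strand (83.3 CPM), so some of its reads may be shared. Dnajc3 (p58IPK), a co-chaperone and inhibitor of PERK, differed by 0.18 and -0.24. Each of these 4 passed in depleted tumours, and Creld2 and Hyou1 in control tumours. With 1 term per tumour, Manf and Dnajc3 passed in control tumours too, though control numbers did not pair in every case. The depleted call of Manf was lost without EpCAM-positive replicate 1 or 4 or EpCAM-negative replicate 6, that of Hyou1 without EpCAM-positive replicate 3 or EpCAM-negative replicate 6, and that of Dnajc3 without EpCAM-positive replicate 6 (highest adjusted p 0.0644, 0.0617 and 0.0571). Dnajb9 (ERdj4), a target of spliced XBP1, differed from the rest: it was at -0.33 ± 0.10 in control and 0.046 ± 0.10 in depleted tumours, and the difference of its contrasts, -0.37 ± 0.15, did not pass (adjusted p 0.0775).

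**Figure D1:**
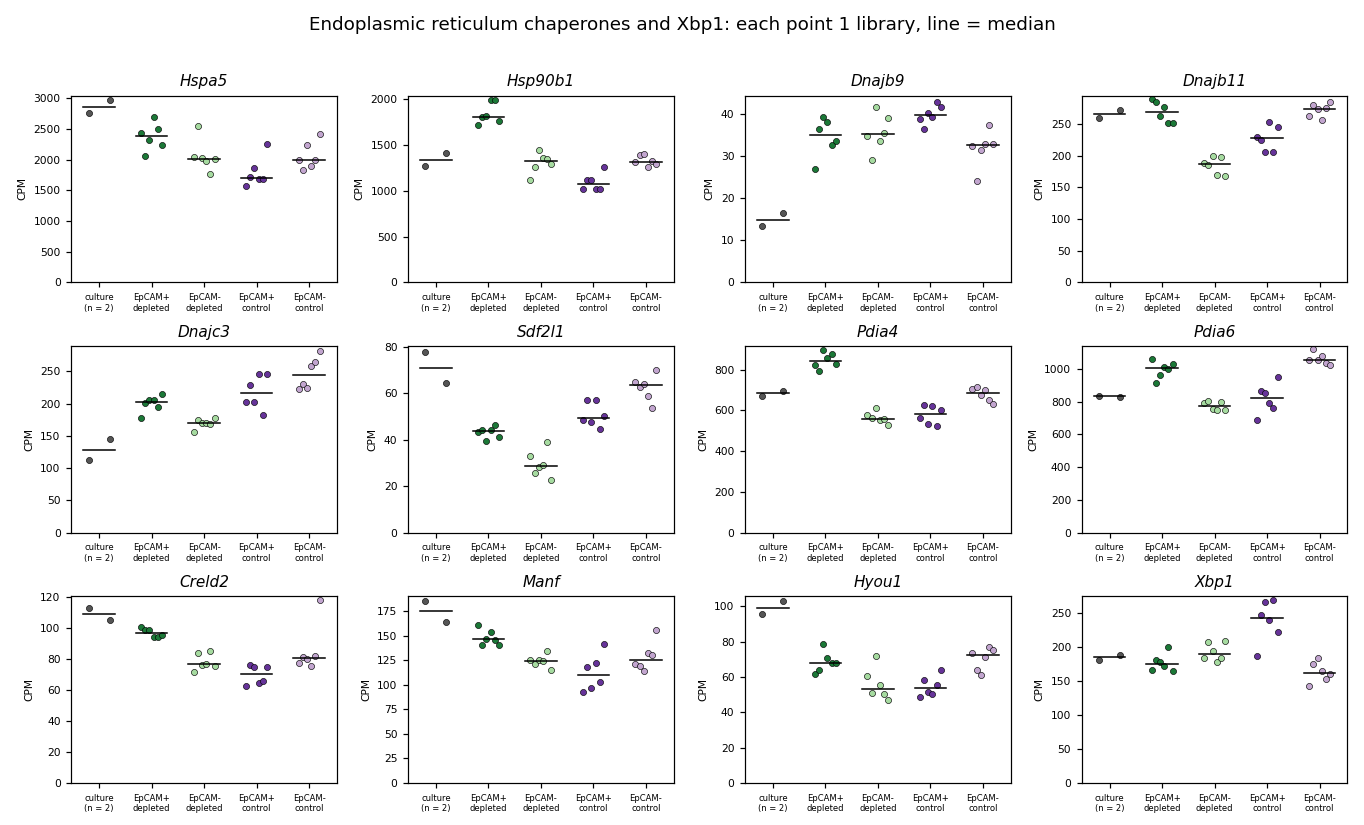
Level of the 11 ER chaperone genes and Xbp1 (y axis, CPM from 0) in each library (points), by group (x axis; n = 6 in the tumour groups and 2 in culture), with lines at the medians. Pdia4, Pdia6 and Dnajb11 are higher in EpCAM-positive than in EpCAM-negative depleted cells and lower in control cells, without overlap, and Dnajb9 is above culture in every tumour group.

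Between hosts, the called chaperones differed in opposite directions in the 2 fractions. In EpCAM-positive cells, 8 of 11 chaperones were lower in control than in depleted tumours and none was higher (median -0.32), where 22.4% of all features were higher and 17.6% lower. Among EpCAM-negative cells, 6 of 11 were higher in control tumours and none was lower (median 0.26), where 23.2% of all features were higher and 21.9% lower. With library totals only, the EpCAM-negative counts were 4 higher and 1 lower, with a median of 0.077 against -0.22 over all features. Hsp90b1 fell by 0.76 ± 0.06 in EpCAM-positive cells (adjusted p 6.74e-10), from 1723 to 1993 CPM in depleted to 1025 to 1265 CPM in control, and gave 0.028 ± 0.06 in EpCAM-negative cells. Hspa5 was lower by -0.40 ± 0.09 in EpCAM-positive control cells (adjusted p 0.000913) and gave 0.001 ± 0.09 in EpCAM-negative cells. Beside these contrasts, macrophage markers were at or above 126 CPM in 3 groups and at most 82.6 CPM in EpCAM-negative control cells, and fibroblast markers were higher in both control groups. Their part in the chaperone levels was not tested.

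Against culture, chaperones were mixed. In EpCAM-positive depleted cells 5 of 11 were higher and 2 lower, where 20.9% of all features were higher and 18.6% lower, and with library totals only this became 3 higher and 5 lower. In EpCAM-negative depleted cells 2 were higher and 7 lower (21.8% and 20.6% of all features). In EpCAM-positive control cells 2 were higher and 8 lower (27.8% and 22.4% of all features), and in EpCAM-negative control cells 3 were higher and 4 lower (26.5% and 24.2%), or 2 higher and 8 lower with library totals only. Dnajb9 and Dnajc3 were higher than culture in all 4 tumour groups, by 1.09 to 1.42 and by 0.40 to 0.94 on the log2 scale. Dnajb9 was at 13.4 and 16.4 CPM in culture and at 24.1 to 42.8 CPM over the 24 tumour libraries. Without culture replicate 1, Manf lost its call in both EpCAM-negative groups (adjusted p 0.0600 and 0.0934), as did Creld2 in EpCAM-negative control cells (0.150), Sdf2l1 in EpCAM-positive control cells (0.157), Pdia4 in EpCAM-positive depleted cells (0.0614) and Dnajc3 in EpCAM-negative depleted cells (0.291). Without one or the other culture, Pdia6 lost its call in EpCAM-positive depleted cells (highest 0.182), and Dnajb11, Pdia4 and Hsp90b1 theirs in EpCAM-positive control cells (highest 0.178, 0.0837 and 0.132).

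The transcription factor gene Xbp1 ran against the chaperones. Counts per gene do not separate its spliced from its unspliced mRNA. Xbp1 was at 181 and 188 CPM in culture, and its lowest, median and highest were 164, 175 and 199 CPM in EpCAM-positive and 178, 189 and 208 CPM in EpCAM-negative depleted cells. In control tumours they were 187, 243 and 268 CPM in EpCAM-positive and 142, 162 and 184 CPM in EpCAM-negative cells. The control groups did not overlap, while the depleted groups did. EpCAM-negative cells were lower by -0.55 ± 0.08 in control tumours (adjusted p 6.79e-06), against 0.12 ± 0.08 in depleted tumours (adjusted p 0.277), and the difference was -0.67 ± 0.11 (adjusted p 0.000107). Control exceeded depleted by 0.43 ± 0.08 in EpCAM-positive cells and was lower by -0.24 ± 0.08 in EpCAM-negative cells.

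In the EpCAM contrasts, Ern1 followed Xbp1 and Atf6 did not. Between hosts, Ern1 was at 23.0 to 38.0 CPM in EpCAM-negative control and 41.1 to 65.3 CPM in EpCAM-negative depleted cells, without overlap. In EpCAM-positive cells the hosts overlapped, at 33.5 to 54.9 CPM in control and 26.8 to 50.3 CPM in depleted tumours. Ern1 was lower in EpCAM-negative cells of control tumours (-0.47 ± 0.15, adjusted p 0.0172), at 0.38 ± 0.15 in depleted tumours (adjusted p 0.0555; 0.37 and 0.0299 with 1 term per tumour), and its contrasts differed by -0.84 ± 0.21 (adjusted p 0.00479). Atf6 was higher in EpCAM-negative cells of both hosts, by 0.47 ± 0.09 and 0.27 ± 0.09, and those differences did not differ detectably from each other (0.19 ± 0.13, adjusted p 0.333). The depleted call of Atf6 was lost without EpCAM-positive replicate 1 or EpCAM-negative replicate 3 or 5 (highest adjusted p 0.0634). Against culture Atf6 was lower in all 4 tumour groups, by -0.53 to -0.99, from 157 and 167 CPM to 60.0 to 130 CPM. Ern1 was higher than its culture level of 25.2 CPM in 3 groups, though without a culture library the call was lost in both EpCAM-positive groups (highest 0.137 in depleted and 0.0543 in control), and in EpCAM-negative control cells it gave 0.29 ± 0.21 (adjusted p 0.259).

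The ER-associated degradation genes did not share 1 pattern. Sel1l, an adaptor of the HRD1 ubiquitin ligase, followed the chaperones: it gave 0.33 ± 0.07 in control tumours (adjusted p 0.000824) and -0.16 ± 0.07 in depleted tumours (adjusted p 0.0953; -0.18 and 0.0246 with 1 term per tumour), with a difference of 0.49 ± 0.10. Herpud1, a scaffold of the same ligase, was higher in control than in depleted tumours in both fractions, by 0.68 ± 0.11 and 0.54 ± 0.11, with no overlap between hosts. Edem1, which marks misfolded glycoproteins for disposal, was lower in control tumours in both, by -0.39 ± 0.08 and -0.40 ± 0.08. Neither Herpud1 nor Edem1 passed in an EpCAM contrast (adjusted p 0.168 to 0.987).

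On the ATF4 side, the chief difference was between culture and tumour. Of 18 genes, 17 were lower than culture in EpCAM-positive depleted, 17 in EpCAM-negative depleted, 16 in EpCAM-positive control and 17 in EpCAM-negative control cells. The median log2 fold changes were -2.40, -2.04, -2.96 and -2.54, against 0.11, 0.092, 0.17 and 0.076 over all features. Nupr1 was the gene that was higher, in EpCAM-positive control cells, and that call was lost without culture replicate 2 (adjusted p 0.148). These counts stand beside the background shares of 18.6%, 20.6%, 22.4% and 24.2% lower given above. The labels describe digestion and sorting for tumours and a single cell suspension for the cultures, so that handling and growth in the mouse cannot be told apart.

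**Figure D2:**
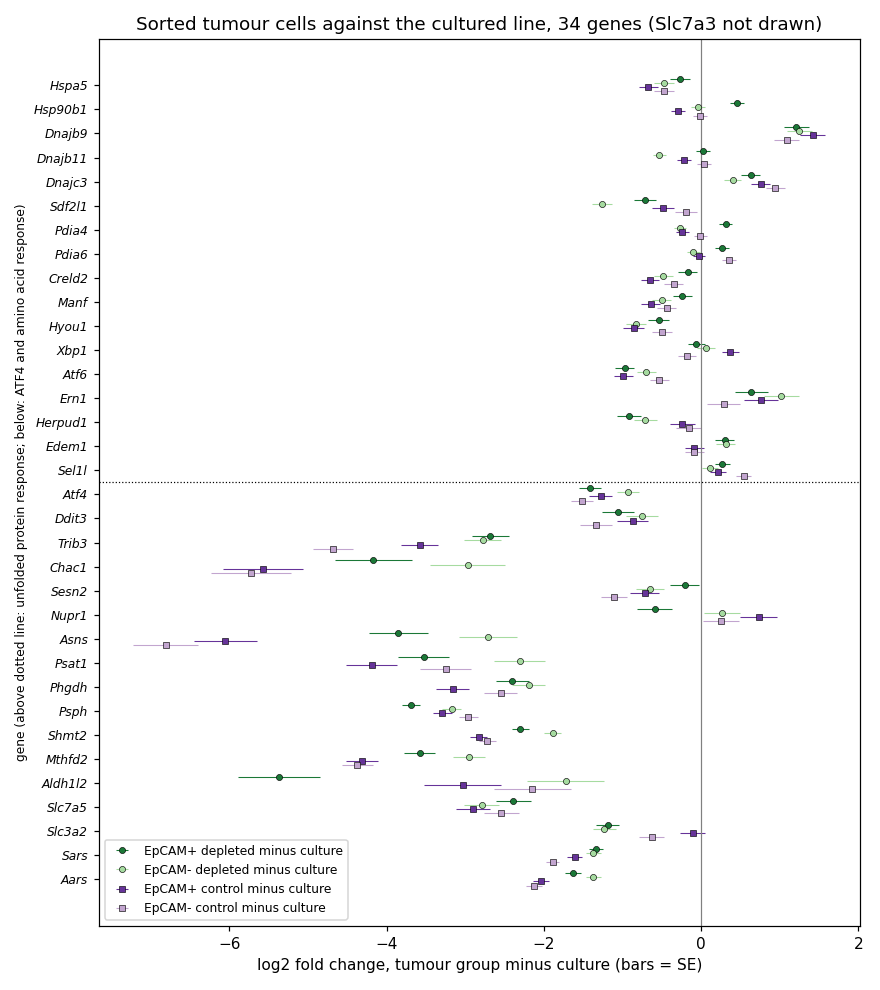
Log2 fold change of each tumour group against culture (x axis, bars = SE; 6 tumour libraries against 2 cultures) for 34 genes (y axis), with the unfolded protein side above the dotted line and the ATF4 side below it. Slc7a3 is not drawn. Chaperones scatter around 0, while nearly all ATF4-side points lie to the left, Asns furthest of the genes drawn at -6.81 in EpCAM-negative control cells.

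Atf4 itself was at 683 and 756 CPM in culture. Its lowest, median and highest were 225, 259 and 324 CPM in EpCAM-positive and 318, 377 and 444 CPM in EpCAM-negative depleted cells, and 214, 311 and 321 CPM and 227, 250 and 280 CPM in the control groups. Every tumour library lay below both cultures, by -0.93 to -1.51 in the group contrasts. EpCAM-negative cells were higher in depleted tumours (0.48 ± 0.10, adjusted p 0.000825), and gave -0.23 ± 0.10 in control tumours (adjusted p 0.104). With 1 term per tumour, the control contrast passed, though control numbers did not pair in every case. The contrasts differed by -0.70 ± 0.15 (adjusted p 0.00110). EpCAM-positive control replicate 6 held the low value of 214 CPM, and without that library the control contrast passed (adjusted p 0.00995).

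Ddit3 (CHOP), a pro-apoptotic transcription factor downstream of ATF4, was at 95.3 and 116 CPM in culture. In the depleted groups its lowest, median and highest were 40.2, 47.9 and 61.2 CPM in EpCAM-positive and 47.4, 64.0 and 72.7 CPM in EpCAM-negative cells. In the control groups they were 30.5, 62.3 and 67.8 CPM and 35.6, 41.2 and 48.4 CPM. Both tumour fractions lay below culture in both hosts and overlapped each other. Ddit3 lost its call in EpCAM-negative depleted cells against culture without culture replicate 1 (adjusted p 0.0989). The EpCAM contrast was -0.47 ± 0.15 in control tumours (adjusted p 0.0202) and 0.31 ± 0.15 in depleted tumours (adjusted p 0.131), with a difference of -0.78 ± 0.21 (adjusted p 0.0106). Ddit3 overlaps Mars, a synthetase gene on the opposite strand at 131 CPM on average, and the kit does not mark strand, so reads of the pair may be shared. Mars was lower than culture in all 4 groups, by -1.11 to -1.63, and its EpCAM contrast was 0.088 in control tumours and 0.30 in depleted tumours, where it passed (adjusted p 0.00753).

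Trib3, a pseudokinase that feeds back on ATF4 and CHOP, was at 439 and 450 CPM in culture. Its lowest, median and highest were 55.6, 71.1 and 81.8 CPM in EpCAM-positive and 38.2, 66.1 and 94.0 CPM in EpCAM-negative depleted cells. In control tumours they were 23.3, 38.7 and 43.9 CPM and 10.0, 19.0 and 22.4 CPM. Control lay below depleted without overlap in each fraction, by -0.91 ± 0.19 in EpCAM-positive cells and -1.90 ± 0.20 in EpCAM-negative ones (adjusted p 0.000465 and 1.66e-08). The EpCAM contrast passed in control tumours (-1.09 ± 0.20, adjusted p 0.000114), was -0.10 ± 0.19 in depleted tumours, and differed by -0.99 ± 0.27 (adjusted p 0.0117). Against culture Trib3 was 6.40-fold lower in EpCAM-positive depleted and 25.6-fold lower in EpCAM-negative control cells.

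Chac1, which degrades glutathione, had 84.6 and 86.8 CPM in culture. It fell to a lowest, median and highest of 2.52, 4.51 and 8.96 CPM in EpCAM-positive and 3.63, 10.4 and 21.6 CPM in EpCAM-negative depleted cells, and of 0.643, 1.55 and 3.15 CPM and 0.800, 1.35 and 2.80 CPM in control cells. The 2 control groups overlapped throughout. EpCAM-negative cells had more in depleted tumours (1.20 ± 0.40, adjusted p 0.0233), a call lost without EpCAM-positive depleted replicate 4 or 6 or EpCAM-negative depleted replicate 2 (highest adjusted p 0.101). Control was lower than depleted by -1.40 ± 0.41 in EpCAM-positive cells and -2.75 ± 0.42 in EpCAM-negative ones (adjusted p 0.00815 and 6.27e-06). Against culture Chac1 was 7.83-fold to 52.6-fold lower over the 4 groups.

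Nupr1 differed from these genes in its levels against culture and between hosts. Nupr1, a small stress-induced chromatin protein, was at 326 and 385 CPM in culture, and had a lowest, median and highest of 176, 229 and 311 CPM in EpCAM-positive and 328, 412 and 540 CPM in EpCAM-negative depleted cells, which did not overlap. In control tumours the values were 390, 595 and 768 CPM in EpCAM-positive and 338, 406 and 563 CPM in EpCAM-negative cells, with overlap. EpCAM-positive cells were higher in control than in depleted tumours by 1.32 ± 0.16 (adjusted p 2.74e-07), and EpCAM-negative cells gave -0.011 ± 0.16. The EpCAM contrast was 0.85 ± 0.16 in depleted tumours (adjusted p 0.000155) and -0.48 ± 0.16 in control tumours (adjusted p 0.0256, lost without EpCAM-positive replicate 5 or EpCAM-negative replicate 1 or 4, highest 0.0706), and the difference was -1.33 ± 0.22 (adjusted p 0.000121). Sesn2, a leucine sensor that restrains mTORC1, was lower in control than in depleted tumours by -0.51 ± 0.13 in EpCAM-positive cells, without overlap, and by -0.47 ± 0.13 in EpCAM-negative ones, with overlap. It was lower than culture in 3 groups, by -0.65 to -1.11, and gave -0.21 ± 0.18 in EpCAM-positive depleted cells (adjusted p 0.379). The call in EpCAM-negative depleted cells against culture was lost without culture replicate 1 (adjusted p 0.0575). Sesn2 was also lower in EpCAM-negative cells of both hosts (-0.39 ± 0.13 and -0.43 ± 0.13), and the difference of 0.041 ± 0.18 did not pass. Its control call was lost without EpCAM-positive replicate 4 or 5 or EpCAM-negative replicate 1, and its depleted call without EpCAM-positive replicate 6 (highest adjusted p 0.0606 and 0.0561).

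**Figure D3:**
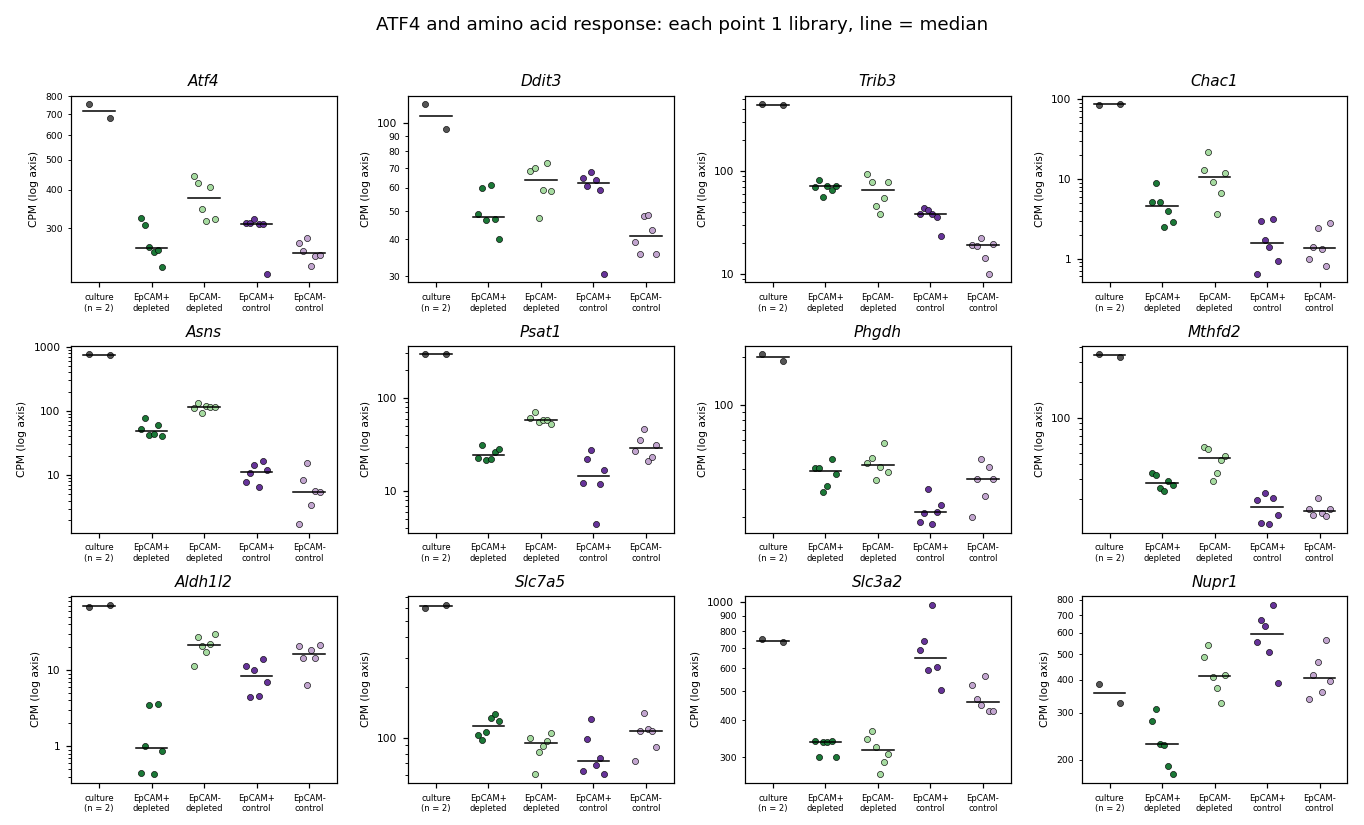
Level of 12 genes of the ATF4 side (y axis, CPM, log axis with its own range in each panel) in each library (points), by group (x axis), with lines at the medians. In all panels but Nupr1 and Slc3a2 both cultures lie above every tumour library. Within each fraction, Asns, Trib3 and Mthfd2 step down from depleted to control cells without overlap.

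Asns, asparagine synthetase and a standard reporter of amino acid shortage, spanned the widest range of the 7 synthesis genes. It was at 747 and 762 CPM in culture, and its lowest, median and highest were 40.0, 48.3 and 76.3 CPM in EpCAM-positive and 93.3, 117 and 132 CPM in EpCAM-negative depleted cells. Control cells had 6.59, 11.3 and 16.7 CPM and 1.72, 5.55 and 15.5 CPM. Depleted and control groups did not overlap, nor did the 2 depleted fractions, while the control fractions did. Control was lower than depleted by -2.20 ± 0.31 (4.60-fold) in EpCAM-positive cells and -4.10 ± 0.34 (17.1-fold) in EpCAM-negative ones, with adjusted p of 2.80e-06 and 2.25e-10. The EpCAM contrast was 1.13 ± 0.30 in depleted tumours (adjusted p 0.00465) and -0.76 ± 0.31 in control tumours (adjusted p 0.0739), and the contrasts differed by -1.89 ± 0.43 (adjusted p 0.00271). With 1 term per tumour, the control contrast passed, though control numbers did not pair in every case. Against culture Asns was 6.55-fold to 112-fold lower.

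All 7 synthesis genes were lower than culture in all 4 tumour groups, by at least -1.72 on the log2 scale. In depleted tumours 6 of 7 were higher in EpCAM-negative cells (median 0.62), and in control tumours 3 were higher and none lower (median 0.33), or 2 higher and 1 lower with library totals only. Over all features, 14.2% were higher in the depleted and 13.3% in the control contrast. Psat1, the aminotransferase of serine synthesis, was at 292 and 293 CPM in culture, at 21.6, 24.7 and 31 CPM in EpCAM-positive and 53.0, 57.6 and 70.8 CPM in EpCAM-negative depleted cells, and at 4.44, 14.7 and 27.8 CPM and 21.1, 29.3 and 45.9 CPM in control cells (lowest, median and highest). The depleted fractions did not overlap and the control fractions did. Its EpCAM contrast was 1.22 ± 0.26 in depleted and 0.94 ± 0.25 in control tumours (adjusted p 0.000566 and 0.00639), with no detectable difference between them (-0.28 ± 0.36, adjusted p 0.663). Its lower level in EpCAM-positive control than depleted cells, -0.66 ± 0.26 (adjusted p 0.0414), missed the threshold in 7 of 12 fits that left out 1 library (highest 0.0917).

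Mthfd2, the mitochondrial folate enzyme, was at 331 and 347 CPM in culture. Its lowest, median and highest were 23.5, 27.8 and 33.6 CPM in EpCAM-positive and 28.6, 45.2 and 56.0 CPM in EpCAM-negative depleted cells, and 12.3, 17.2 and 22.7 CPM and 14.4, 15.9 and 20.5 CPM in control cells. Control lay below depleted without overlap in each fraction, by -0.73 ± 0.16 and -1.42 ± 0.16 (adjusted p 0.000703 and 7.61e-08). The EpCAM contrast was 0.62 ± 0.16 in depleted tumours (adjusted p 0.00405) and -0.064 ± 0.16 in control tumours. Their difference, -0.69 ± 0.23 (adjusted p 0.0362), missed the threshold in 12 of 24 fits that left out 1 library (highest 0.0748).

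Aldh1l2, a mitochondrial folate dehydrogenase, was higher in control than in depleted tumours in EpCAM-positive cells. It was at 68.0 and 72.7 CPM in culture, at 0.428, 0.942 and 3.55 CPM (lowest, median and highest) in EpCAM-positive and 11.4, 21.3 and 30.0 CPM in EpCAM-negative depleted cells, and at 4.47, 8.52 and 14.1 CPM and 6.38, 16.5 and 21.2 CPM in control cells. EpCAM-positive depleted cells lay below the other 3 groups without overlap, on only 8 to 91 counts a library. EpCAM-negative cells had 12.6-fold more in depleted tumours (3.66 ± 0.45, adjusted p 4.05e-07), against 0.88 ± 0.39 in control tumours (adjusted p 0.0908), and the contrasts differed by -2.77 ± 0.58 (adjusted p 0.00112). EpCAM-positive control cells exceeded depleted ones by 2.34 ± 0.43 (adjusted p 9.42e-05), while EpCAM-negative cells of both hosts overlapped and gave -0.43 ± 0.38 (adjusted p 0.376). Aldh1l2 overlaps D10Wsu102e on the opposite strand, whose group means were 36.5 to 51.0 CPM and whose EpCAM contrasts were 0.27 and 0.29, neither of which passed.

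Phgdh, the first enzyme of serine synthesis, Psph, the last, and Shmt2, which splits serine for one-carbon units, completed the set. Phgdh was higher in EpCAM-negative cells of control tumours (0.61 ± 0.17, adjusted p 0.00674), and Shmt2 in those of depleted tumours (0.42 ± 0.08, adjusted p 0.000408). Psph was higher in both, by 0.33 ± 0.10 and 0.53 ± 0.10, though the control call was lost without EpCAM-positive or EpCAM-negative control replicate 2 (highest adjusted p 0.0584). Shmt2 was lower in control than in depleted tumours in both fractions (-0.52 ± 0.08 and -0.83 ± 0.08), and Phgdh in EpCAM-positive cells (-0.75 ± 0.17). Psph was higher there (0.41 ± 0.10). Psph overlaps Cct6a on the opposite strand, which had a mean of 397 CPM and fell by 0.57 in the same comparison.

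**Figure D4:**
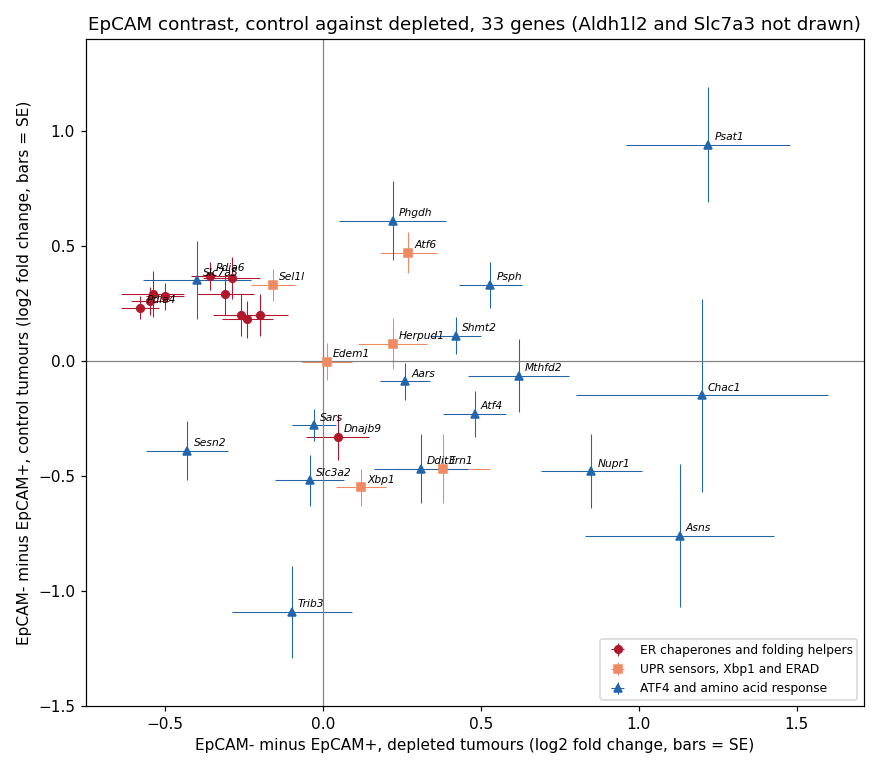
EpCAM-negative minus EpCAM-positive log2 fold change in depleted (x axis) and control tumours (y axis) for 33 genes, with bars of 1 SE (n = 6 libraries a group; the 2 axes share no library). Aldh1l2 and Slc7a3 are not drawn. Chaperones (red circles) gather at the upper left except Dnajb9, Xbp1 lies below 0 on the y axis, and Psat1 and Asns lie far to the right.

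The 3 amino acid transporters split. Slc3a2 (4F2hc), the heavy chain shared by several transporters, was at 733 and 753 CPM in culture, and had a lowest, median and highest of 299, 337 and 340 CPM in EpCAM-positive and 262, 316 and 367 CPM in EpCAM-negative depleted cells. Control cells had 504, 650 and 984 CPM and 429, 461 and 566 CPM, above depleted cells without overlap in each fraction. Control exceeded depleted by 1.08 ± 0.12 and 0.60 ± 0.11 (adjusted p 3.66e-08 and 0.000115). The EpCAM contrast was -0.52 ± 0.11 in control tumours (adjusted p 0.00110) and -0.043 ± 0.11 in depleted tumours, and their difference, -0.48 ± 0.16 (adjusted p 0.0414), missed the threshold in 13 of 24 fits that left out 1 library (highest 0.0715).

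Slc7a5 (LAT1), the light chain that pairs with Slc3a2 to import large neutral amino acids, stayed 5.23-fold to 7.44-fold below culture in all 4 groups, including those where Slc3a2 was high. It was at 601 and 628 CPM in culture and 60.1 to 140 CPM over the tumour libraries. Its EpCAM contrast was 0.35 ± 0.17 in control (adjusted p 0.134) and -0.40 ± 0.17 in depleted tumours (adjusted p 0.0833; -0.43 and 0.00221 with 1 term per tumour), and the difference of 0.76 ± 0.24 (adjusted p 0.0305) was lost in 8 of 24 fits without 1 library (highest 0.0586). The control contrast of Slc7a5 passed with 1 term per tumour as well, though control numbers did not pair in every case. Slc7a3 (CAT3), an importer of cationic amino acids, held 1573 counts over the 2 cultures and 16, 43, 28 and 18 counts over the 6 libraries of EpCAM-positive depleted, EpCAM-negative depleted, EpCAM-positive control and EpCAM-negative control cells. Its culture level was 174, 66.0, 155 and 241 times those levels, with 95% exact intervals for counting error only of 107 to 305, 48.8 to 91.6, 107 to 234 and 152 to 408. Single libraries held 28 of the 43 counts in EpCAM-negative depleted, 22 of 28 in EpCAM-positive control and 15 of 18 in EpCAM-negative control cells.

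Sars and Aars load serine and alanine onto tRNA, and both were lower than culture in every tumour group, by 2.54-fold to 4.38-fold. Sars was at 686 CPM in both cultures and 178 to 315 CPM in tumours, and Aars at 892 and 962 CPM and 190 to 379 CPM. Both were lower in control than in depleted tumours in each fraction, from -0.27 ± 0.07 for Sars in EpCAM-positive to -0.77 ± 0.08 for Aars in EpCAM-negative cells. Aars was higher in EpCAM-negative cells of depleted tumours (0.26 ± 0.08, adjusted p 0.0109), and Sars lower in those of control tumours (-0.28 ± 0.07, adjusted p 0.00171).

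Over the ATF4 side as a whole, EpCAM-negative cells of depleted tumours had higher levels of 10 of 18 genes and a lower level of 1 (median 0.45), while 3 were higher and 6 lower in control tumours (median -0.19). The difference passed for 10 genes: 9 towards lower and 1, Slc7a5, towards higher in control. Between hosts, control was lower for 11 genes and higher for 4 in EpCAM-positive cells, and lower for 11 and higher for 1 in EpCAM-negative cells (medians -0.46 and -0.58). The 4 higher genes were Nupr1, Psph, Aldh1l2 and Slc3a2. Over all features, 22.4% were higher and 17.6% lower between hosts in EpCAM-positive cells, and 23.2% and 21.9% in EpCAM-negative cells. In the EpCAM contrasts they were 14.2% and 14.3% in depleted and 13.3% and 14.5% in control tumours, and 8.69% and 9.33% in the difference. The 4 of 18 higher between hosts and the 3 of 18 higher in the control EpCAM contrast were near these shares. With library totals only, the control EpCAM counts of the 18 genes became 2 higher and 9 lower and the difference 0 higher and 11 lower.

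Other genes of the same pathways were counted from lists by function. The 24 tested further ER folding and degradation genes included 11 higher and 1 lower in the EpCAM contrast of control tumours (median 0.23), and 3 higher and 13 lower in that of depleted tumours (median -0.16). Over all features, 13.3% were higher and 14.5% lower in control, and 14.2% and 14.3% in depleted tumours. Dnajc10, an ER reductase, rose by 0.65 ± 0.05 in the former contrast (adjusted p 3.26e-10), and Pdia3, a glycoprotein disulphide isomerase, differed by -0.67 ± 0.06 in the latter (adjusted p 4.83e-09). Crtap and Txndc5 rose by 0.99 ± 0.07 and 0.62 ± 0.06 in the control contrast. Their means were also higher in EpCAM-negative than in EpCAM-positive depleted cells, at 68.4 against 50.4 CPM and 344 against 324 CPM. Calr and Canx, the lectin chaperones calreticulin and calnexin, differed by -0.49 ± 0.07 and -0.46 ± 0.06 in depleted tumours. Among 34 tested further genes of the integrated stress response, 19 were higher and 1 lower in EpCAM-negative depleted cells, and 4 were higher and 2 lower in EpCAM-negative control cells, where the 4 of 34 higher were near the share over all features. Atf5, a transcription factor of the response, was higher by 1.05 ± 0.21 in the depleted contrast (adjusted p 0.000292), whereas Eif2ak3, which encodes PERK, was lower by -0.90 ± 0.14 (adjusted p 1.66e-05). Atf3, another transcription factor of the response, was lower by -1.35 ± 0.30 in the control contrast (adjusted p 0.00117). Its group means were 267 to 936 CPM in tumours, highest in EpCAM-positive control cells, and 70.7 CPM in culture.

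Against culture, 23 to 26 of these 34 genes were lower in the 4 tumour groups and 1 to 4 higher, where 18.6% to 24.2% of all features were lower and 20.9% to 27.8% higher. Of 8 synthetases outside the ATF4 list, 5 and 6 were lower in the 2 depleted groups and all 8 in both control groups, with medians from -0.42 to -0.72. The 15 genes of the cytosolic heat shock list, a stress response of another compartment, had 6 to 7 higher and 6 to 8 lower against culture. The list also held Hspd1, which encodes a mitochondrial chaperonin. The rises were the larger: Hspa1b was higher by 3.18 to 4.54 and Hspb1 by 3.25 to 4.54 on the log2 scale. Stip1 and Hspd1, among the lower genes, differed by -0.81 to -1.34 and by -1.06 to -1.55. In the EpCAM contrasts 2 of the 15 were higher and 4 lower in control and 1 higher and 2 lower in depleted tumours. Over all features, 13.3% were higher and 14.5% lower in control, and 14.2% and 14.3% in depleted tumours. Slc1a4, a neutral amino acid transporter, was higher in control than in depleted tumours in both fractions (1.81 ± 0.12 and 1.34 ± 0.12), as Slc3a2 was, and Nars and Gars, synthetases for asparagine and glycine, were lower in both. Nars differed by -0.65 ± 0.06 and -0.70 ± 0.06, and Gars by -0.60 ± 0.08 and -0.90 ± 0.08, in EpCAM-positive and EpCAM-negative cells in turn.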

How the data were processed

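Gene counts per library were deposited by the authors as raw whole-number counts for 47730 features. STAR, the genome mm9 and DESeq2 1.22.2 are named in the submitters' processing notes, while no source used here gives the counting tool, its annotation or its use of strand. Per the labels' protocols, cDNA was made from 0.1 to 1.0 ng of RNA with the SMARTer v4 kit, amplified by 10, 12 or 14 cycles and sequenced with 50-base single reads (HiSeq 1000). Which library had which number of cycles is not stated, and the kit marks neither strand nor molecules. The deposited normalized table was not used.

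Symbols were matched for 47224 features. Counts were fitted with edgeR 4.0.16 in R 4.3.3 (TMM factors, filterByExpr by group, glmQLFit, glmQLFTest) on all 26 libraries with 1 coefficient per group, and p-values were adjusted by Benjamini-Hochberg over 16637 tested features (threshold 0.05). Alternatives were DESeq2 1.42.0, RLE factors, library totals only, no filter, only the compared groups, each library left out in turn, and 1 term per tumour. The script was tested on simulated data. The 35 genes, the pathway and marker lists and the tests were chosen with earlier results of these data known. Full ranges are given for genes that passed with a log2 fold change of at least 1 between EpCAM fractions or hosts, and for Hspa5, Xbp1, Atf4, Ddit3 and Asns; pathway genes named are among the 4 smallest p-values of their list and comparison. Overlapping genes were read from GENCODE M21 and promoters from RefSeq GRCm38.p6; no coordinate was tied to the counts, whose build is another.

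Both fractions were sorted from each tumour, and the labels number the libraries without saying that a number marks a tumour. Over 9080 features with a mean of at least 10 CPM, same-numbered depleted libraries deviated together in 6 of 6 pairs (r 0.108 to 0.294), and same-numbered control libraries in 5 of 6 above 0.1 (0.0716 to 0.433). Over all 16637 features, 0 of 6 depleted and 4 of 6 control pairs exceeded 0.1. That check was made first, and the restriction to 10 CPM was chosen after seeing it, so the pairing of the depleted numbers rests on that choice. The depleted numbers were taken as pairs, and the value with 1 term per tumour is given beside a depleted result where it changed a call. Control numbers did not pair in every case. Control EpCAM contrasts that passed only with 1 term per tumour are named beside their genes, with values under the dependence on processing.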

Additional observations from a re-analysis of the deposited data

Results flagged for a closer look

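Of 140 sets of 6 libraries examined (35 genes in 4 tumour groups), 11 held a library that stood apart from the other 5, where chance gives about 1 in 20, or 7. EpCAM-positive control replicate 6 stood apart in 4 genes of the ATF4 side: it was low in Atf4 (214 CPM, others 310 to 321), Ddit3 (30.5, others 58.9 to 67.8) and Trib3 (23.3, others 36.2 to 43.9) and high in Slc7a3 (0.767, others 0 to 0.0909). Sesn2 was high in EpCAM-positive depleted replicate 6 (112 CPM, others 65.1 to 79.5) and low in EpCAM-positive control replicate 1 (36.4, others 55.2 to 63.6). The other 5 were Hspa5 in EpCAM-negative depleted replicate 2 (2550, others 1765 to 2045), Creld2 in EpCAM-negative control replicate 6 (118, others 75.5 to 81.7), Mthfd2 in EpCAM-negative control replicate 3 (20.5, others 14.4 to 16.5), Slc7a3 in EpCAM-negative control replicate 2 (0.418, others 0 to 0.0923) and Sars in EpCAM-positive depleted replicate 2 (315, others 249 to 272).

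The EpCAM contrast differed between hosts for 23 of the 35 genes by edgeR's test of the difference, 12 towards higher and 11 towards lower in control, where 8.69% and 9.33% of all features did so. On the log2 scale, control minus depleted, it was positive for Sdf2l1 (0.83), Pdia4 (0.81), Dnajb11 (0.80), Hsp90b1 (0.78), Slc7a5 (0.76), Pdia6 (0.74), Hyou1 (0.65), Creld2 (0.60), Sel1l (0.49), Manf (0.45), Dnajc3 (0.41) and Hspa5 (0.40). It was negative for Aldh1l2 (-2.77), Asns (-1.89), Nupr1 (-1.33), Trib3 (-0.99), Ern1 (-0.84), Ddit3 (-0.78), Atf4 (-0.70), Mthfd2 (-0.69), Xbp1 (-0.67), Slc3a2 (-0.48) and Aars (-0.35).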

How the results depend on the processing

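The number of genes called of 35 stayed within 1.5 times its value in all 9 comparisons under DESeq2, RLE factors, library totals, no filter, only the compared groups, and each left-out library. Leaving out 1 library gave 18 to 23 (EpCAM contrast, control), 18 to 22 (depleted), 20 to 24 (difference), 24 to 26 and 23 to 24 (control minus depleted, EpCAM-positive and EpCAM-negative), and 23 to 29, 25 to 30, 24 to 30 and 24 to 26 (against culture). With library totals only, the split between higher and lower became 4 and 12 in the control EpCAM contrast (12 and 9 with TMM), 8 and 14 in the difference (12 and 11), 12 and 8 in the depleted contrast (11 and 10), 7 and 16 between hosts in EpCAM-negative cells (9 and 14), and 3 and 24 in EpCAM-positive depleted cells against culture (7 and 21). For Dnajb11 in EpCAM-negative control cells against culture, library totals only gave -0.27 (adjusted p 0.0149), against 0.036 with TMM.

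A replicate block, 1 term per tumour, gave 26 called genes in the control EpCAM contrast (21 without it), 25 in the depleted contrast (21) and 26 in the difference (23). The control numbers did not pair in every case, and the block added Asns (-0.98, adjusted p 0.00305), Atf4 (-0.24, 0.0175), Dnajc3 (0.16, 0.0486), Manf (0.19, 0.0192) and Slc7a5 (0.36, 0.00786) there. It took away no call.

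Over all genes, comparisons and left-out libraries, 119 calls of single genes were lost and 29 gained. Depth did not overlap between hosts and was higher in control tumours. Slc7a3 rested on few counts (at most 28 in a tumour library), as did Aldh1l2 in EpCAM-positive depleted cells (8 to 91 a library). Chac1 was low in control tumours (at most 3.15 CPM, 23 to 104 counts a library), though those libraries were the deeper ones.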
